A study of Rattus norvegicus with 10 samples.

Results

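The genes described here are 8 genes of cholesterol synthesis and its control, Hmgcs1, Idi1, Fdps, Fdft1, Sqle, Cyp51, Dhcr7 and Insig1, measured in rat lumbar cord after repeated morphine. They were chosen by name, through the RefSeq mRNA accession that the array design gives for each probe. Of the 8 genes, 7 were matched to a probe, each by 1 probe with 1 spot, out of 12136 mRNA genes with a symbol and 19934 RNAs that passed the filter on dim probes. Insig1 was not analysed here. All 7 probes were well above background on 10 of 10 arrays, none of their spots was marked as an outlier, and no spot on any array was saturated.

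The study asked which transcripts of the lumbar cord differ once morphine analgesic tolerance has formed. The MT (morphine tolerance) group was 5 male Sprague-Dawley rats of 240 to 260 g, numbered 1 to 5, which received 10 μg of morphine in 10 μl by intrathecal injection 2 times a day for 7 days. The NS (normal saline) group was 5 male rats of the same strain and weight, numbered 6 to 10, injected on the same schedule with 10 μl of saline. According to the study's methods the lumbar enlargement was taken on the day after the last day of the course, about an hour after the morning injection, so the repeated and the most recent dose cannot be told apart. Each rat had 1 one-colour array of the RNA of the whole lumbar enlargement.

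Cells build cholesterol from acetyl-CoA. The mevalonate steps lead to isoprenoid units, which are joined to farnesyl diphosphate and then to squalene, and squalene is closed to lanosterol and trimmed to cholesterol. Most enzymes of the route are transcribed together under the transcription factor SREBP2, the product of Srebf2, which is released from the endoplasmic reticulum when sterols run low and is held there by Insig proteins when sterols are plentiful. The cord depends on this route, since little cholesterol crosses from the blood and the myelin made by oligodendrocytes is rich in it.

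All 7 genes had lower mean levels after morphine than after saline, by 0.12 to 0.50 on the log2 scale, with a median difference of -0.33 against a median of -0.0010 over all RNAs tested and -0.02 over all mRNA genes. Hmgcs1 and Dhcr7 stood at the larger end of the range and Fdft1 at the smaller end. The unadjusted P of limma was below 0.05 for 6 of 7 genes, and 9.51% of all RNAs tested were lower in the MT group at that threshold. None of the 7 passed the study's criteria, read as a fold over 1.5 on the linear scale and P under 0.05 before adjustment, which 0.998% of all RNAs met as lower in the MT group. None passed a Benjamini-Hochberg adjusted p of 0.05 over all RNAs either, which 0.125% of RNAs did as lower, and the methods' t-test also gave 0 of 7 on both rules, with 4 of 7 below an unadjusted P of 0.05. In a bulk extract, fewer cells of a type and less RNA per cell cannot be told apart.

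The arrays lay on 3 slides by their scan times, and the slides are tied to the groups. Slide 1 held MT rats 1, 3, 4 and 5, slide 2 held MT rat 2 with NS rats 6, 7 and 10, and slide 3 held NS rats 8 and 9. On slide 3 between 58.6% and 63.8% of spots were well above background, against 77.4% to 83.9% on the other arrays. The median spot intensity before normalization was 29.8 to 42.1 on slide 3 and 74.4 to 101.4 on the other arrays. Each of the 7 genes is therefore also given without slide 3 and within slide 2, the only slide with both groups. All levels are quantile-normalized log2 intensities of 1 probe, so levels are compared between rats and never between genes.

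For 4 of the 7 measured genes the bases just before the transcription start are shown here, because the route is known for shared promoter elements. Whether these elements bear on the levels of the genes over the arrays was not tested. The sequences come from the RefSeq promoter table of the GRCr8 build, and 200 bases are given 5′ to 3′ in the direction of the gene and ending at the base before the start. Capitals mark the NF-Y box CCAAT and the Sp1 box GGGCGG on either strand (ATTGG and CCGCCC when they lie on the opposite strand).
Idi1 (chr17:66547525-66547724, minus strand): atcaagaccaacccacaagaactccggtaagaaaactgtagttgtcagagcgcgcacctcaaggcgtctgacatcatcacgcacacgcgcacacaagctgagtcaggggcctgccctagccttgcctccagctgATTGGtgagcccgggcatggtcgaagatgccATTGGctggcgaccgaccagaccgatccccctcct
Fdps (chr2:176804817-176805016, minus strand): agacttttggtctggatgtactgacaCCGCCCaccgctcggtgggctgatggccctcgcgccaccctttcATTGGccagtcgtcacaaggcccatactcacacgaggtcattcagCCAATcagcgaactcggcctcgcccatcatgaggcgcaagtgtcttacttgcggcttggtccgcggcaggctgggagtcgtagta
Dhcr7 (chr1:208444234-208444433, plus strand): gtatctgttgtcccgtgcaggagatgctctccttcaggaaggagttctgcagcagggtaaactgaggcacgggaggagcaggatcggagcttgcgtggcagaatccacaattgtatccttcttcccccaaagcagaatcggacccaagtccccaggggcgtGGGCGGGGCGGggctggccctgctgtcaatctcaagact
Cyp51 (chr4:30991493-30991692, plus strand): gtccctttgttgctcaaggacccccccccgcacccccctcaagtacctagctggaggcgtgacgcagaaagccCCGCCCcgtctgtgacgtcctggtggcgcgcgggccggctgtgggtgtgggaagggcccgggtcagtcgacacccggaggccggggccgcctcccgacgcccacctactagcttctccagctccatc

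The NF-Y box binds the CCAAT-binding factor and the Sp1 box binds Sp-family factors, both known partners of SREBP at sterol-regulated promoters. Idi1 held 2 CCAAT boxes, at -66 and -35 from the start, both on the opposite strand. Fdps held 1 on the opposite strand at -130 and 1 on the gene's strand at -85, with 1 Sp1 box at -174. Dhcr7 had no CCAAT box and 2 Sp1 boxes, at -39 and -34, which share 1 base. Cyp51 had no CCAAT box, and 1 Sp1 box at -127. Over the whole windows of 300 bases (250 before the start and 50 after it), CCAAT was found in 4 of the 6 windows that the table holds for the 8 genes and GGGCGG in 5 of 6, against 37.5% and 33.1% of all 33469 windows. The SREBP element TCACNCCAC was in 0 of 6 and in 1.12% of all windows, which says only that these letters are not in the windows. For Hmgcs1 the start used by the table lies inside the annotated gene and its bases are not printed; its window held 2 CCAAT boxes, at -188 and -133, and 4 Sp1 boxes. Sqle and Fdft1 have no entry in the table.

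Hmgcs1 encodes the cytosolic HMG-CoA synthase, which acts early in the mevalonate steps. Its log2 intensity was 13.43, 13.49, 13.20, 13.67 and 13.43 in MT rats 1 to 5, and 13.72, 13.76, 14.23, 14.24 and 13.80 in NS rats 6 to 10. The MT values all lay under the NS values, and the 2 highest values were those of slide 3. Of all RNAs with a value on every array, 3.31% showed such a separation with the MT group below. The group means were 13.45 ± 0.17 and 13.95 ± 0.26 (SD, n = 5 each), so the MT level was 29.5% lower. The log2 difference of -0.50 had a standard error of 0.14 and a 95% interval from -0.81 to -0.20, with a limma adjusted p of 0.143. An exact two-sided permutation test gave p = 0.00794, the smallest that 252 assignments of 5 and 5 rats allow. Without slide 3 the difference was -0.31. Within slide 2, MT rat 2 was at 13.49 and the 3 NS rats were between 13.72 and 13.80.

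Idi1 encodes the isomerase that turns isopentenyl diphosphate into dimethylallyl diphosphate, the unit that starts chain building. The MT rats had log2 intensities of 12.47, 12.81, 11.98, 12.68 and 12.59, and the NS rats 13.00, 12.59, 12.83, 12.87 and 12.99. The groups overlapped, with MT rat 3 far below all others and NS rat 7 among the MT values. The means were 12.51 ± 0.32 and 12.86 ± 0.17 (SD, n = 5 each), a difference of -0.35 with an interval from -0.69 to -0.01 and a limma adjusted p of 0.302 (exact permutation p = 0.0476). It was -0.35 without slide 3 and -0.22 without MT rat 3. Within slide 2, MT rat 2 at 12.81 lay inside the NS range of 12.59 to 13.00.

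Fdps encodes farnesyl diphosphate synthase, whose product also feeds protein prenylation, dolichol and ubiquinone. Its log2 intensity was 13.42, 13.74, 13.16, 13.63 and 13.60 in the MT rats, and 13.83, 13.53, 13.89, 13.90 and 13.74 in the NS rats. MT rat 3 was again the lowest, and 2 of 5 MT rats lay below all NS rats. The means were 13.51 ± 0.23 and 13.78 ± 0.15 (SD, n = 5 each). The difference was -0.27, with an interval from -0.54 to -0.0013, a limma adjusted p of 0.305 and an exact permutation p of 0.0556. Fdps is the one gene of the 7 whose direction turned under a slide block, which rests on MT rat 2 and the 3 NS rats of slide 2: there MT rat 2, at 13.74, was 0.04 above the NS mean, with the NS rats between 13.53 and 13.83. Without slide 3 the difference was -0.19.

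Fdft1 encodes squalene synthase, the first step committed to sterols. Its log2 intensity was 11.45, 11.46, 11.28, 11.63 and 11.41 in the MT rats and 11.46, 11.54, 11.51, 11.68 and 11.66 in the NS rats. The groups overlapped, and Fdft1 had the smallest difference of the 7, at -0.12 with an interval from -0.30 to 0.06. Its means were 11.45 ± 0.13 and 11.57 ± 0.09 (SD, n = 5 each), and neither limma (adjusted p = 0.467) nor the exact permutation test (p = 0.111) set them apart. Without slide 3 the difference was -0.11. Within slide 2, MT rat 2 was at 11.46, as low as the lowest of the NS rats, which ran from 11.46 to 11.66.

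Sqle encodes squalene epoxidase, a known control point of the route. The MT rats had log2 intensities of 13.81, 13.89, 13.58, 14.02 and 13.79, and the NS rats 14.11, 13.87, 14.04, 14.10 and 14.09. Of the NS rats 4 were above every MT rat, and NS rat 7 lay between MT rats. The means were 13.82 ± 0.16 and 14.04 ± 0.10 (SD, n = 5 each). The MT level was 14.6% lower, with a log2 difference of -0.23, an interval from -0.43 to -0.03, a limma adjusted p of 0.263 and an exact permutation p of 0.0238. The size hardly depended on slide 3, at -0.21 without it, but the unadjusted P of limma was then 0.0904 in place of 0.0303. Within slide 2, MT rat 2 at 13.89 lay inside the NS range of 13.87 to 14.11.

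Cyp51 encodes lanosterol demethylase, which acts on the newly closed ring. Its log2 intensity was 12.97, 13.06, 12.53, 13.22 and 12.94 in the MT rats and 13.19, 13.02, 13.35, 13.46 and 13.35 in the NS rats. The groups overlapped through MT rats 2 and 4 and NS rats 6 and 7. The means were 12.94 ± 0.25 and 13.27 ± 0.17 (SD, n = 5 each), a difference of -0.33 with an interval from -0.63 to -0.04 and a limma adjusted p of 0.267 (exact permutation p = 0.0397). It was -0.24 without slide 3 and -0.23 without MT rat 3. Within slide 2, MT rat 2 at 13.06 lay inside the NS range of 13.02 to 13.35.

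Dhcr7 encodes the reductase that makes cholesterol from its last precursor on the Kandutsch-Russell branch. The MT rats had log2 intensities of 12.26, 12.41, 11.66, 12.54 and 12.36, and the NS rats 12.69, 12.39, 12.93, 12.90 and 12.60. MT rat 3 lay well below the next MT rat, at 12.26, and the rats of slide 3 were the highest. The means were 12.25 ± 0.34 and 12.70 ± 0.22 (SD, n = 5 each). The MT level was 27.0% lower, with a log2 difference of -0.45, an interval from -0.84 to -0.07, a limma adjusted p of 0.246 and an exact permutation p of 0.0238. Without slide 3 the difference was -0.31, and without MT rat 3 it was also -0.31. Within slide 2, MT rat 2 at 12.41 lay just above the lowest of the NS rats, which ran from 12.39 to 12.69.

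**Figure D1:**
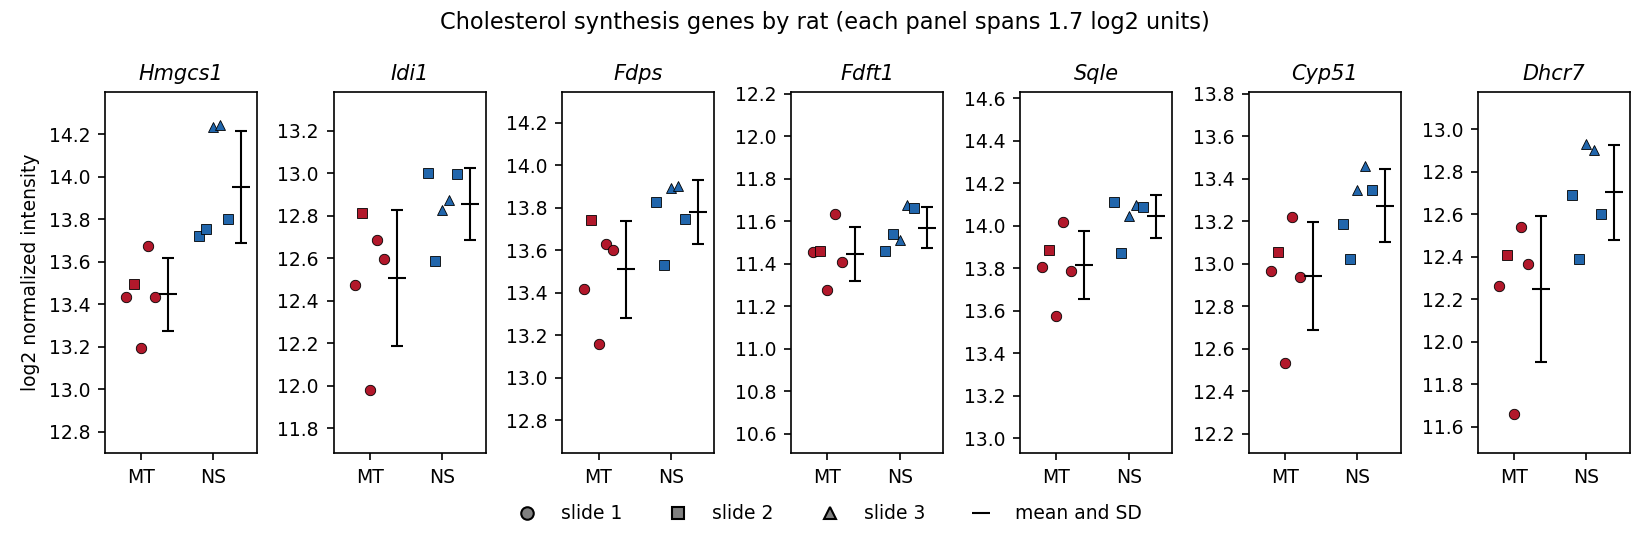
Log2 normalized intensity of the 7 measured genes in each of the 5 MT and 5 NS rats, with marker shapes for the slide and bars for the mean and SD of a group; each panel has its own axis with the same span. Only the Hmgcs1 groups do not overlap, MT rat 3 is the lowest point in every panel, and the 2 rats of slide 3 lead the NS group in Hmgcs1, Fdps and Dhcr7.

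The 7 genes varied together from rat to rat. MT rat 3 had the lowest value of all 10 rats for 7 of 7 genes, and its mean over the genes, each centred on its own mean, was -0.52. The other MT rats lay between -0.18 and 0.05 on this scale and the NS rats between -0.05 and 0.30. MT rats 2 and 4, at -0.03 and 0.05, lay above NS rat 7, at -0.05. The highest value belonged to NS rat 9 for 4 genes, to NS rat 6 for 2 and to NS rat 8 for 1.

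Over the 10 arrays the Pearson r between 2 of the genes ranged from 0.66 for Fdps with Fdft1 to 0.96 for Dhcr7 with Cyp51, with a median of 0.89 over 21 pairs. Each gene was set against the mean of the other 6 (7 relations, 100000 permutations each). Pearson's r ran from 0.79 for Fdft1 to 0.98 for Cyp51 and Spearman's rho from 0.79 to 0.98, with permutation p from 1e-05, the smallest possible, to 0.00641 for r and from 3e-05 to 0.00874 for rho. The Benjamini-Hochberg values were at most 0.00641 for r and 0.00874 for rho. The permutations were over all 10 rats whatever their group or slide, so these p take in the shift between groups. No p was computed with group or slide means removed. Leaving out MT rat 3 and NS rat 9, the arrays farthest from the median, left r between 0.75 and 0.94 for 6 genes and 0.44 for Fdft1, whose relation thus rested on those arrays. With slide means removed r was between 0.75 and 0.97, and with group means removed between 0.70 and 0.97. With group means removed and those 2 rats left out, r was 0.78 to 0.92 for Fdps, Sqle, Cyp51 and Dhcr7 but 0.31 for Fdft1, 0.56 for Hmgcs1 and 0.59 for Idi1. With both rats kept these 3 were at 0.70, 0.71 and 0.81. Inside the groups the relation of Fdft1 thus rested largely on MT rat 3 and NS rat 9, and those of Hmgcs1 and Idi1 were weaker without them. All points of a relation share the same 10 arrays and their normalization.

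**Figure D2:**
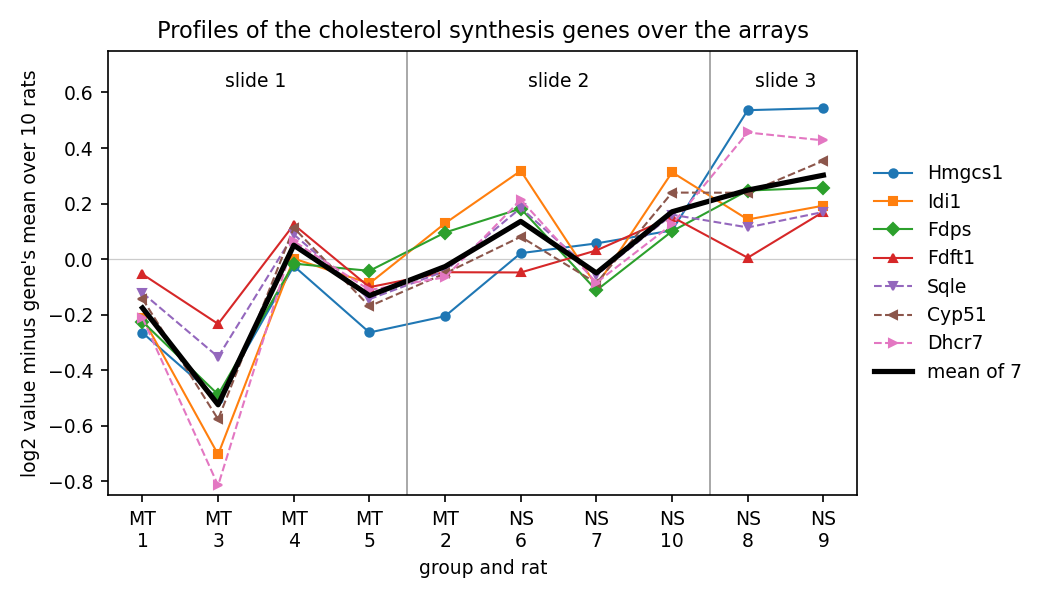
Log2 value of each of the 7 genes minus its own mean over the 10 rats, with the rats ordered by slide and the thick line giving the mean of the 7. The lines dip together at MT rat 3, to -0.52 for the mean, and on slide 3 Hmgcs1 and Dhcr7 lie above the mean of 0.25 to 0.30.

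The profile was not confined to the route. Among 12000 other mRNA genes with a value on every array, 1.98% correlated with the mean profile at r above 0.9. The 5 most alike were Ermp1 (r = 0.99), an endoplasmic reticulum metallopeptidase, Sec16b (0.99), which takes part in export from the endoplasmic reticulum, the mismatch repair gene Mlh3 (0.98), the UDP-galactose transporter Slc35a2 (0.98) and Fam135a (0.98), each over 10 arrays. Their own log2 differences were between -0.43 for Sec16b and -0.25 for Mlh3. This direction follows from their choice by likeness to a profile that was lower in the MT group.

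The rest of the route was lower on the whole too. Of 14 further synthesis enzymes 12 were tested, 11 of them were lower in the MT group and 7 had an unadjusted P below 0.05, with a median log2 difference of -0.28. Of all RNAs tested, 9.51% were lower at that threshold. Without slide 3, 10 of these enzymes were lower, 3 of them at that threshold, with a median of -0.23. With the slide as a block the median was -0.14. The one past the study's criteria was Tm7sf2, a sterol reductase that acts right after Cyp51, with a log2 difference of -0.78 ± 0.20 (SE, limma adjusted p = 0.139). The MT group lay wholly below the NS group, as for 3.31% of RNAs with a value on every array. Its log2 intensity ran from 10.10 to 11.30 after morphine and from 11.50 to 11.79 after saline. It was at -0.70 without slide 3, at -0.58 and short of the fold criterion without MT rat 3, and at -0.34 with the slide as a fixed block.

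The late enzymes Sc5d (a desaturase), Msmo1 (which oxidizes the methyl groups of the ring) and Hsd17b7 (which reduces the resulting ketone) had log2 differences of -0.49, -0.36 and -0.36, with limma adjusted p of 0.0929, 0.199 and 0.133. For Sc5d and Hsd17b7 the groups did not overlap, and 3.31% of RNAs with a value on every array separated in this direction. Without slide 3 these 2 genes were at -0.41 and -0.34, and with the slide as a block at -0.36 and -0.24. Acat2, Pmvk and Ebp were at -0.01, -0.05 and 0.02, with 95% intervals from -0.18 to 0.15, -0.27 to 0.17 and -0.25 to 0.28.

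**Figure D3:**
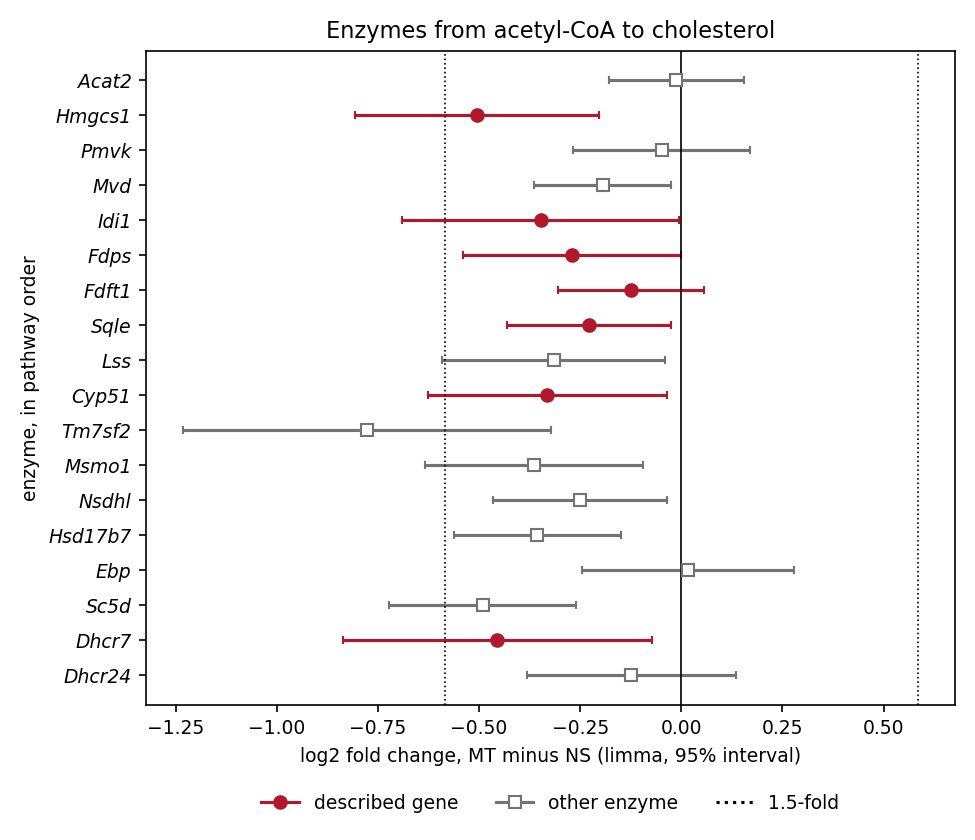
Log2 difference of MT minus NS with its 95% interval for 18 of the tested enzymes from acetyl-CoA (top) to cholesterol (bottom); red circles are the 7 genes described and open squares the other enzymes, with dotted lines at a fold of 1.5. Of the 18 points 17 lie below 0, and only Tm7sf2 lies past the lower dotted line.

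Genes that sense and take up sterols split in direction. Of 16 such genes 11 were tested, 5 were lower and 6 higher, with a median of 0.06. Srebf2, the source of SREBP2, was at 13.46 ± 0.05 after morphine and 13.38 ± 0.11 after saline (SD, n = 5 each), a difference of 0.08 with an interval from -0.08 to 0.23. Without slide 3 its difference was 0.15, with an unadjusted P of limma of 0.0363. Within slide 2, MT rat 2 was at 13.47 and the NS rats were between 13.25 and 13.33. Scap, the escort of SREBP, was at -0.11, and Insig2, the relative of Insig1 that was measured, at 0.14. The 2 genes with an unadjusted P below 0.05 were both lower: Npc2, which carries cholesterol out of lysosomes (-0.34, limma adjusted p = 0.121, without overlap), and the sterol carrier Stard4 (-0.38, adjusted p = 0.268). Of all RNAs, 9.51% were lower at that threshold, and 3.31% of RNAs with a value on every array separated as Npc2 did.

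Among genes of efflux, storage and oxysterols, 11 of 12 were tested, 5 were lower and 6 higher, with a median of 0.06. Ch25h, which makes an oxysterol that holds SREBP back, was the one past the study's criteria: 11.35 to 11.99 after morphine against 9.88 to 11.74 after saline, a log2 difference of 0.82 ± 0.30 (SE, limma adjusted p = 0.234). Of all RNAs, 1.73% met the criteria as higher in the MT group. Its groups overlapped. It was at 0.96 without slide 3 and at 0.55, short of the fold criterion, without NS rat 10. Cyp7b1, an oxysterol hydroxylase, was at -0.32, the exporter Abcg1 at -0.31 and the sterol hydroxylase Cyp27a1 at -0.29.

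Fatty acid synthesis, which shares SREBP control, was lower for 7 of the 8 genes tested (9 listed), with a median of -0.30. The desaturase Scd had the largest difference, at -0.55 (limma adjusted p = 0.0891), with no overlap between the groups and -0.45 without slide 3. Such a separation was found in 3.31% of RNAs with a value on every array. Acss2 (acetyl-CoA synthetase) and the desaturase Fads2 were at -0.38 and -0.35, and Me1 (malic enzyme) was higher at 0.26. All 3 had an unadjusted P below 0.05, at which 9.51% of all RNAs were lower and 6.81% higher. Without slide 3 the list had 6 of 8 genes lower and a median of -0.25, and with the slide as a block 4 of 8 lower, a median of -0.03 and 0 at an unadjusted P below 0.05. Among the other uses of farnesyl diphosphate 6 of 7 genes were tested, with a median of -0.03. The farnesyltransferase subunit Fntb was at -0.29 (limma adjusted p = 0.163), and Rabggtb, Ggps1 and Pdss2 were at 0.14, 0.16 and -0.08.

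In all, 48 of 58 further genes were tested, 1 was lower and 1 higher by the study's criteria, and none had an adjusted p below 0.05 in limma, while 15 lower and 2 higher ones had an unadjusted P below 0.05. By the criteria these shares of 48 genes are near those over all RNAs, 0.998% lower and 1.73% higher. At an unadjusted P below 0.05, 9.51% of all RNAs were lower and 6.81% higher. The methods' t-test likewise put 2 past the criteria.

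Markers of the cell types of the cord were examined beside these values. The oligodendrocyte list was well expressed, with 10 of 10 markers tested and none near 0, and 8 of 10 were lower in the MT group, with a median of -0.19 and 2 at an unadjusted P below 0.05. Those 2 were Ermn, at -0.42 with no overlap between the groups, and Cnp, at -0.21. At an unadjusted P below 0.05, 9.51% of all RNAs were lower and 6.81% higher. Of RNAs with a value on every array, 3.31% had every MT rat below every NS rat. Opalin was at -0.38 and the myelin protein gene Mbp at 0.11. Summed over the list, linear intensity ranged from 456762 to 504711 after morphine and from 447678 to 530494 after saline, which overlap. For MT rat 3 the centred mean of the list was -0.08, against -0.52 for the 7 genes. Among the marker lists this rat was lowest or highest only in those of endothelial cells and cord position. The endothelial list was highest there, at 0.30. Hoxd10, the 1 marker of cord position tested, was lowest there, at -1.09 from its mean over the rats, followed by NS rat 7 at -0.54. NS rat 9, the highest rat in the mean of the 7 genes, came next in Hoxd10, at -0.37. MT rat 5 was highest in Hoxd10, at 0.76, but was at -0.13 in the mean of the 7 genes. It was also lowest in the oligodendrocyte list and highest in the neuron list. Astrocyte markers had a median of -0.06 over 7 tested and neuron markers -0.01 over 9. All 7 microglia markers were lower, 5 at an unadjusted P below 0.05, with a median of -0.34 and sums of 63803 to 77261 after morphine and 75200 to 100631 after saline. Precursor, Schwann and endothelial markers had medians of -0.09, -0.04 and -0.0012 over 4, 5 and 4 genes. All 3 neutrophil markers tested were higher, 2 at an unadjusted P below 0.05, with a median of 0.63 and sums of 185 to 289 against 81.2 to 145, and Hoxd10 had a group difference of 0.27. The part of these cells, or of the level of the cord, in the differences of the 7 genes was not tested.

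**Figure D4:**
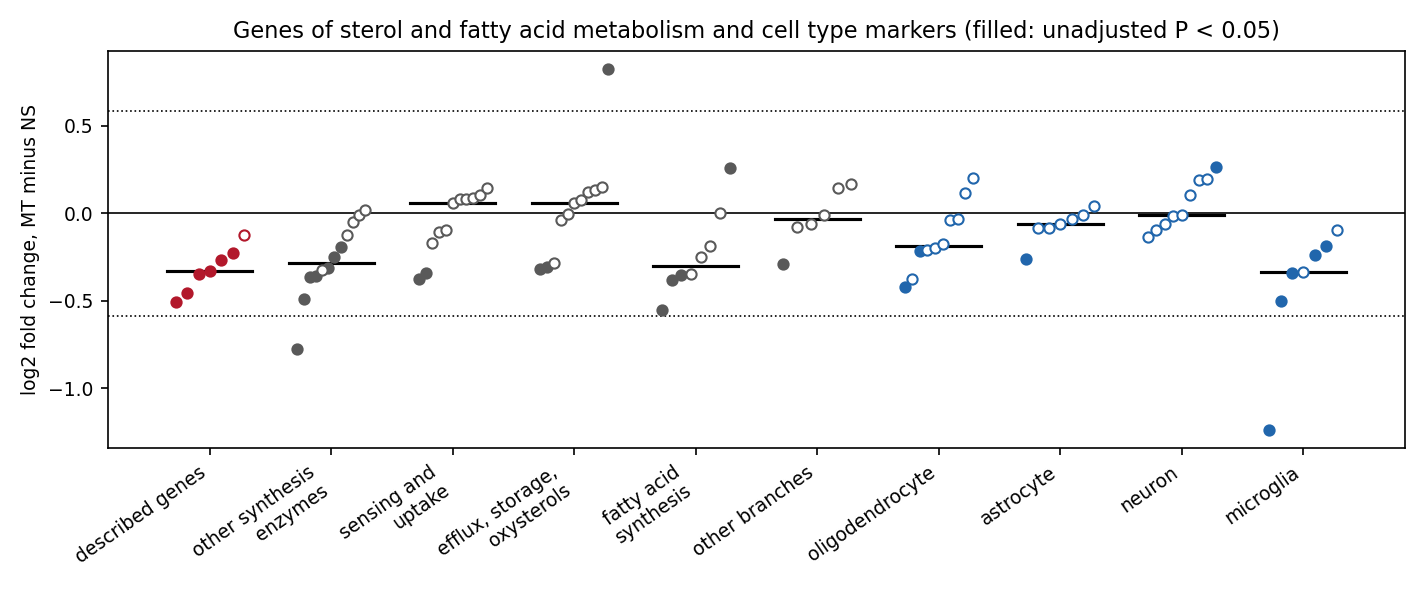
Log2 difference of MT minus NS for each tested gene of the sterol and fatty acid lists and of 4 cell marker lists, filled where the unadjusted P of limma was below 0.05, with a bar at the median of a list and dotted lines at a fold of 1.5. The 7 genes described (red) all lie below 0 with a median of -0.33, while sensing, uptake, efflux and storage genes lie on both sides of 0.

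The size of the differences depended on which arrays were set against each other. Without slide 3 all 7 genes were still lower, by 0.11 to 0.35 on the log2 scale, and 1 of them, Hmgcs1, had an unadjusted P below 0.05, where 9.51% of all RNAs were lower at that threshold. Without MT rat 3 the count was 2 of 7, Hmgcs1 and Dhcr7, against 8.64% of all RNAs, and all 7 were again lower. Leaving out 1 rat at a time gave counts from 1, without NS rat 9, to 6, with 2 also without MT rat 1 or 5 or NS rat 8 or 10 and 3 without NS rat 6. Of all RNAs, 6.51% were lower at that threshold without MT rat 1, 7.94% without MT rat 5 and 6.69% without NS rat 9. The share was 6.78% without NS rat 8, 9.82% without NS rat 6 and 10.3% without NS rat 10. With the slide as a block, which leaves MT rat 2 against 3 NS rats, 6 of 7 were lower, by 0.05 to 0.27, Fdps was 0.04 higher, and 0 of 7 had an unadjusted P below 0.05, while 2.31% of all RNAs were lower at that threshold. Slide and group cannot be told apart beyond this single MT array.

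**Figure D5:**
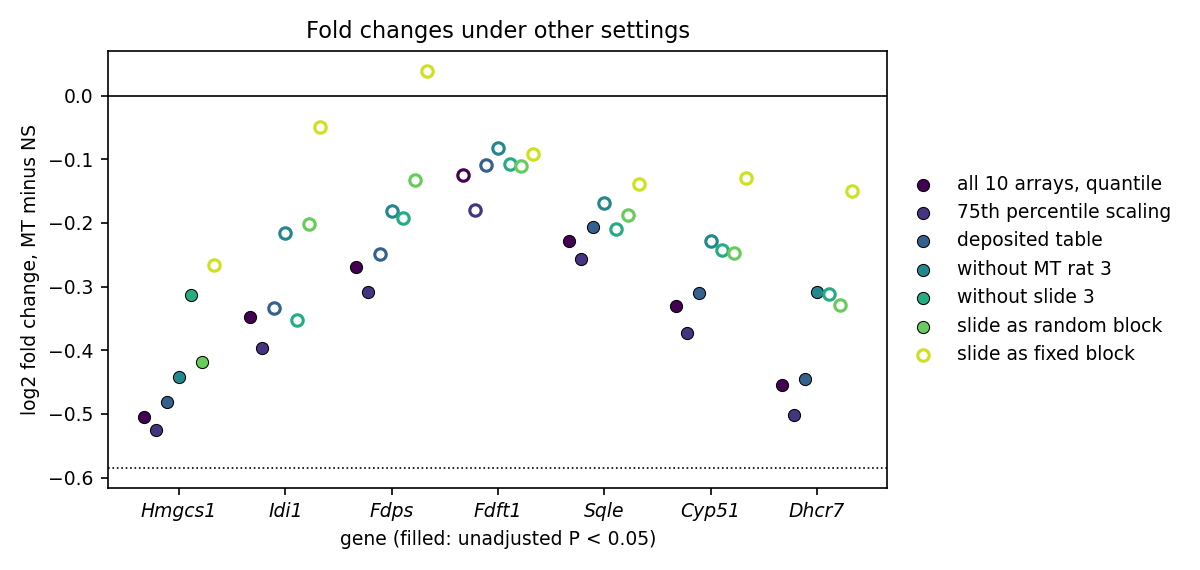
Log2 difference of MT minus NS for the 7 genes under 7 settings, filled where the unadjusted P of limma was below 0.05, with the dotted line at a fold of 1.5. The slide as a fixed block gives the point nearest 0 for 6 of the 7 genes, and no point reaches the dotted line.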

How the data were processed

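The authors scanned 1 one-colour Arraystar rat lncRNA array per rat and deposited, per the file headers of Agilent Feature Extraction 11.0.1.1 (a version also in the submitters' processing notes), linear spot intensities, already background-subtracted, together with flags for outliers and background. The authors also deposited a table of log2 intensities, quantile normalized in GeneSpring per the study's methods, which is used only as an alternative. Samples were grouped by their labels, 5 MT and 5 NS rats, and the labels name separate rats.

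Here intensities were floored at 1, put on the log2 scale and quantile normalized (limma 3.58.1, R 4.3.3). Spots flagged as outliers were dropped, spots and then probes of a gene were averaged, and RNAs well above background on at least 5 arrays were kept. Accessions were matched without versions to the RefSeq annotation of GRCr8, which named 14274 of 15323 mRNA probes. limma compared MT with NS over 19932 RNAs, with Benjamini-Hochberg adjustment over all of them, 95% intervals and unadjusted P where so named, and single genes were tested by exact two-sided permutation. Correlations used 100000 permutations in scipy. The genes described and all lists were chosen with earlier results of these data known. Besides them, the 4 genes of each list with the smallest P, Srebf2 and the 5 genes most like the mean profile were named; Acat2, Pmvk, Ebp and the cell markers were named after their values were seen. A few further genes of the lists count in their totals but are not reported singly here.

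The alternatives were 75th percentile scaling, normexp, the deposited table, the filter dropped or set on all 10 arrays, the methods' t-test, array weights, a variance trend, the slide (arrays sharing a scan time) as a fixed or random block or without slide 3, the brightest probe, outlier spots kept, and each rat left out. The number of arrays limits the precision. The steps were tested on simulated data, and figures were drawn with matplotlib.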

Additional observations from a re-analysis of the deposited data

Results flagged for a closer look

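In 3 of 66 sets of 5 rats (33 named genes in both groups), 1 rat lay far from the other 4, where chance gives about 1 in 20. None of these sets was of the 7 cholesterol synthesis genes. Sqle in the NS group fell just short, with NS rat 7 at 13.87 and the nearest rat at 14.04. Msmo1 was lowest of its group in MT rat 3, at 12.64, Me1 was lowest of its group in MT rat 5, at 11.37, and so was Ch25h, at 11.35.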

How the results depend on the processing

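No paired analysis was possible because the groups share no rat number, with rats 1 to 5 in one and 6 to 10 in the other. Leaving out 1 rat gave 0 of the 7 genes past the study's criteria or the adjusted threshold in every case, as did all other settings. The number of the 7 genes lower at an unadjusted P below 0.05, 6 with all arrays, was 1 to 6 with 1 rat left out. It was 1 without NS rat 9, 2 without MT rat 1, 3 or 5 or NS rat 8 or 10, and 3 without NS rat 6. It was 3 with array weights, 1 without slide 3, 1 without slide 3 and MT rat 3, 1 with the slide as a random block and 0 with it as a fixed block. For the other synthesis enzymes this count, 7 with all arrays, was 4 to 8 with 1 rat left out (4 without NS rat 9), 3 without slide 3, 3 without slide 3 and MT rat 3, 2 with the random block and 0 with the fixed block. The number of further pathway genes past the study's criteria, 2 with all arrays, was 1 to 3 with 1 rat left out (1 without MT rat 3 or NS rat 10), and 0 with either slide block or without slide 3 and MT rat 3. At an unadjusted P below 0.05, 9.79% of all RNAs were lower with array weights and 9.51% without slide 3. The share was 8.29% without slide 3 and MT rat 3, and 4.28% with the slide as a random block. All 7 genes were lower in every setting except the fixed block, where Fdps was at 0.039. The fixed block takes the difference from the single slide with both groups, so fewer arrays carry it. The counts at an unadjusted P and the setting without both slide 3 and MT rat 3 were added after seeing the data, as was normexp on the median signal, since the planned version on the mean signal was not run. Scaling by the 75th percentile moved the median of all RNAs to 0.08 and left the count at 6. Signal over background was lowest on slide 3, which limits those arrays.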
